A study of Mus musculus with 6 samples.

Results

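Hmgcs1, Mvk, Mvd, Idi1, Fdps, Fdft1, Sqle and Lss encode enzymes on the route through mevalonate to lanosterol, and were chosen by name from this pathway. They are 8 of the 21887 protein-coding genes of the RefSeq annotation used here. For each gene, called peaks were collected within 1 kb, 2.5 kb and 50 kb of the annotated gene ends in build mm10 (GRCm38). The data came from CUT&Tag, which releases DNA fragments where an antibody sits, in OG2X129 mouse embryonic fibroblasts in a chemical reprogramming experiment. The acetyl mark H3K27ac, found at active promoters and enhancers, was mapped in 2 samples treated with CD and in 2 treated with DMSO. The series title names CD3254, an agonist of the retinoid X receptor (RXR), and the labels do not spell out CD. Flag-tagged Rxra was mapped with a Flag antibody in cells that overexpressed it (2 samples), and the labels do not say whether these cells received CD or DMSO. They also give no day of reprogramming and do not say whether replicates were separate cultures.

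The mevalonate pathway joins acetyl-CoA units into isoprenoid building blocks, which feed prenylation, ubiquinone, dolichol and sterol synthesis. Squalene is the first compound committed to sterols, and its closure to lanosterol begins the route to cholesterol. The genes of this pathway are switched on together by SREBP2 when cell sterols are low, usually with NF-Y and Sp1 at the same promoters. RXRα acts with partner receptors, among them the oxysterol-sensing LXRs, which are best known for driving sterol export.

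Each Flag-Rxra replicate had a peak list of its own, with 28243 peaks in replicate 1 and 45999 in replicate 2. For H3K27ac a single list stood for both replicates of a condition, with 104437 regions in CD and 75482 in DMSO, so H3K27ac values carry no replicate error. The H3K27ac lists reach down to a −log10 q of 1.00 and have medians of 1.39 in CD and 1.5 in DMSO, whereas the Flag-Rxra lists begin at 5.00. Of 6 fibroblast markers, 3 had an H3K27ac region within 1 kb of a gene end in CD and 2 in DMSO, and of 8 markers of other cell types 1 did in each list, Cd68 in CD and Pecam1 in DMSO. Of all protein-coding genes 38.3% had one in CD and 35.8% in DMSO. Within 2.5 kb, the fibroblast markers summed to 3595 covered bases in CD, against 5542 in DMSO, and the other markers to 3605 in CD and 570 in DMSO. Most of the 3605 came from Cd68 alone, with 2184 in CD and 0 in DMSO. Myod1 had 0 in CD and 205 in DMSO, and Sox1, Adgre1 and Myh3 had 0 in both. Col1a1, a defining collagen gene of fibroblasts, had no covered bases in either list. The part of other cell types in the results was not tested. No control list was used here, so a called peak does not establish that Rxra binds at that place, and the sequencing depth is unknown.

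The promoter sequences below are shown because Flag-Rxra peaks overlapped them in both replicates, from 117 of 300 bases at Idi1 in replicate 1 to the whole window at Hmgcs1 and Mvd. RefSeq windows of 300 bases (GRCm38.p6, 250 bases before to 50 after the start site, written 5′ to 3′ along the gene's own strand) were found for 5 of the 8 genes, and a shared peak overlapped all 5, against 31.2% of 17492 protein-coding genes with a window. They lie at chr13:119690101-119690400 on the plus strand (Hmgcs1), chr5:114444019-114444318 on the plus strand (Mvk), chr8:122443373-122443672 on the minus strand (Mvd), chr13:8885356-8885655 on the plus strand (Idi1) and chr10:76531355-76531654 on the plus strand (Lss). Capitals mark CCAAT or its complement ATTGG, the core of an NF-Y site, and in Hmgcs1 also TCACCCCAC, a sterol regulatory element of the form TCACNCCAC.
Hmgcs1: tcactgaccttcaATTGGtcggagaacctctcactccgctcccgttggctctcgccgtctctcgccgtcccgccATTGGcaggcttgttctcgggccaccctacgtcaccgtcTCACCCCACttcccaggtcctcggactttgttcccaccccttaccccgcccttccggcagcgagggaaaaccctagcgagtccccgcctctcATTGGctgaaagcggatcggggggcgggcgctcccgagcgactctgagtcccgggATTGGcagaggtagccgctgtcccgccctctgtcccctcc
Mvk: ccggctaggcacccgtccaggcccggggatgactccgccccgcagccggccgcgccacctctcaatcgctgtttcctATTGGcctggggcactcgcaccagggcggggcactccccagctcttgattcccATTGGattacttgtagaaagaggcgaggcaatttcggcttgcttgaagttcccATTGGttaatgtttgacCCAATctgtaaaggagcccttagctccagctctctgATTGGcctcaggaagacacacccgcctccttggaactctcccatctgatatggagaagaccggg
Mvd: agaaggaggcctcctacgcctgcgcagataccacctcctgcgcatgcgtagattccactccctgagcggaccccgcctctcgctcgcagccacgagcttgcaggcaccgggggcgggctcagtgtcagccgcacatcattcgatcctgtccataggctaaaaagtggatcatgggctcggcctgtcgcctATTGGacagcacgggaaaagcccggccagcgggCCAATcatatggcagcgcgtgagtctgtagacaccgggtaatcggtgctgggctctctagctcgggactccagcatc
Idi1: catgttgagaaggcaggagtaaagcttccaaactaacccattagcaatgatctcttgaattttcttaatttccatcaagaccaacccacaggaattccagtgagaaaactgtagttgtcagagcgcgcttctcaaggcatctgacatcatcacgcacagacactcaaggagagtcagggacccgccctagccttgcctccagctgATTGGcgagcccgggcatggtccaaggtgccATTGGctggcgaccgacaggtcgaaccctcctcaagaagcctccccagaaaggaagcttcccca
Lss: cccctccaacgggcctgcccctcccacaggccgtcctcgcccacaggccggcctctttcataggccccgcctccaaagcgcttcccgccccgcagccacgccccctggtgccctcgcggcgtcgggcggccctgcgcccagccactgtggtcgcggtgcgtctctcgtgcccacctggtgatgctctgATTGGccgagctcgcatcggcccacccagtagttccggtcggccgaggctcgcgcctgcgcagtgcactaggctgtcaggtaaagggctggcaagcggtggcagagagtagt

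All 5 promoter windows held CCAAT on one strand or the other, and all 5 held GGGCGG, the core of an Sp1 site. CCAAT occurred in 37.4% of the 32851 RefSeq promoter windows of the same length and GGGCGG in 35.7%. Among promoters of protein-coding genes, CCAAT was found in 45.2% of 6174 windows under a shared Flag-Rxra peak and in 35.3% of the 15089 other windows. GGGCGG was found in 74.7% of the windows under a shared peak and in 34.6% of the others, and both words in 33.6% of the windows under a shared peak and in 10.0% of the others. Mvk had 5 CCAAT matches, Hmgcs1 4, Mvd and Idi1 2 each and Lss 1. Thus 4 of the 5 windows had at least 2, against 21.0% of coding-gene windows under a shared peak and 11.7% of all windows. Matches were counted on both strands, and these words do not overlap one another in the windows shown. A match describes letters and is not evidence of binding.

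TCACNCCAC was found in Hmgcs1 and in none of the other 4 windows, and 1.24% of all promoter windows held it. AGGTCA, the half-site of RXR and its partners, was also found in Hmgcs1 alone, from −246 to −241 relative to the start site, and 16.3% of all windows held it. No window of the 5 held AGGTCANAGGTCA or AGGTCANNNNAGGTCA, the direct repeats with a spacing of 1 and 4 bases, which occurred in 0.0396% and 0.0152% of all windows. In Hmgcs1 the sterol element lies from −137 to −129 relative to the start site. The Flag-Rxra summit of replicate 2 fell inside it, and that of replicate 1 lay 29 bases away. Other words lay near summits too. In Hmgcs1 a GGGCGG match lay 8 bases from the replicate 1 summit and 40 from that of replicate 2. In Lss a GGGCGG match lay 6 and 2 bases from the summits of replicates 1 and 2. Whether summits favour any 1 word was not tested.

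**Figure D1:**
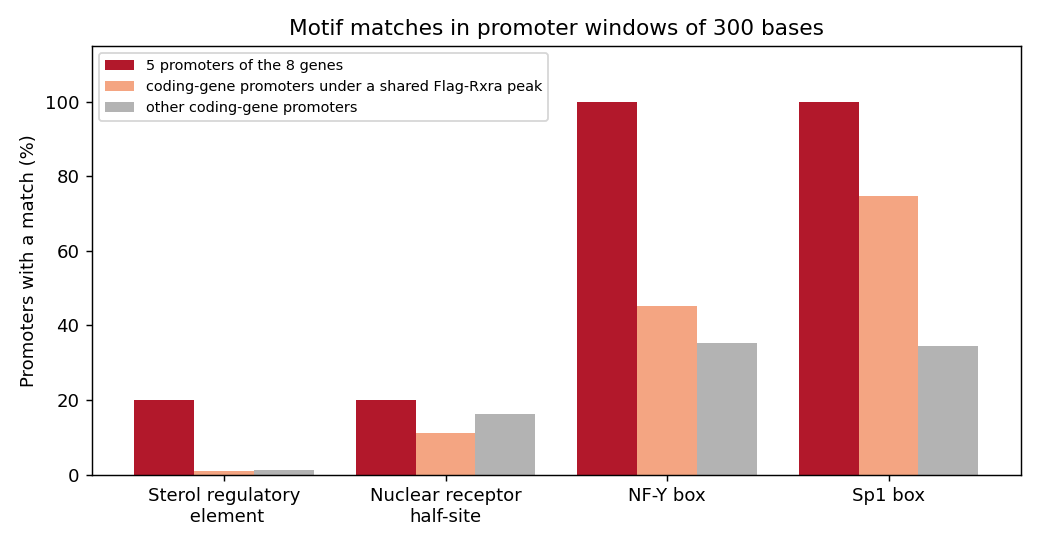
Share of promoter windows of 300 bases with at least 1 match, in percent, for the 5 windows of the mevalonate to lanosterol genes (dark red), coding-gene promoters under a Flag-Rxra peak shared by both replicates (light red) and other coding-gene promoters (grey). The NF-Y and Sp1 words were in all 5 gene windows, and the sterol regulatory element and the nuclear receptor half-site in 1 of 5 each.

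A Flag-Rxra peak shared by both replicates lay within 1 kb of an annotated end of 7 of the 8 genes, where 32.6% of all protein-coding genes had one. A shared peak is a replicate 1 peak that overlaps a replicate 2 peak by at least 1 bp. Fdft1 was the exception, since its shared peak lay inside the annotated gene. These 7 genes also had a peak in replicate 1 and in replicate 2 taken alone, which the definition of a shared peak all but fixes. Fdft1 had none within 1 kb in either replicate. Of all protein-coding genes, 41.7% had one in replicate 1 and 42.1% in replicate 2. No test was made of the count, because the genes were chosen with earlier results of these data known.

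Hmgcs1 encodes the cytosolic HMG-CoA synthase, which makes the first dedicated intermediate of the pathway. Its Flag-Rxra peak (chr13:119690019-119690620) had a fold enrichment over the authors' background of 16.6 in replicate 1 and 23.6 in replicate 2. Both values are the authors', and they put the peak at percentile 93.6 of folds in the replicate 1 list and 95.2 in the replicate 2 list. It covered the whole promoter window printed above in both replicates. The summits lay at −100 bp and −132 bp relative to the start site.

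Mvk and Mvd, the kinase that phosphorylates mevalonate and the decarboxylase that makes isopentenyl diphosphate, had peaks of similar strength. At Mvk (chr5:114443875-114444315) the fold was 13.5 in replicate 1 and 18.6 in replicate 2, with summits at −92 bp and −41 bp. This peak also reaches the end of Mmab, a neighbouring gene of cobalamin metabolism, so the 2 genes cannot be told apart by it. At Mvd (chr8:122443345-122443786) the fold was 12.2 in replicate 1 and 19.4 in replicate 2, with summits at −175 bp and −237 bp. The long non-coding RNA gene 9330133O14Rik has an annotated end within 1 kb of this peak. At both genes the peak thus lies close to the end of a neighbour.

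Idi1 encodes the isomerase that turns isopentenyl diphosphate into dimethylallyl diphosphate, and Fdps the synthase that makes farnesyl diphosphate. The Idi1 peak (chr13:8885539-8886140) had folds of 13.2 (replicate 1) and 17.2 (replicate 2). Its summits were 345 bp apart, at 265 bp in replicate 1 and −80 bp in replicate 2 relative to the start site, the widest gap among the 8 genes. The Fdps peak (chr3:89101924-89102230) had folds of 13.1 (replicate 1) and 22.6 (replicate 2), and its summits lay 130 bp and 95 bp outside the upper annotated end. At the other end of Fdps, next to Rusc1, replicate 2 alone had a peak with a fold of 17.7 (chr3:89093292-89093448). Replicate 1 had no peak there, so this site was not counted.

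Fdft1 encodes squalene synthase, Sqle squalene epoxidase and Lss lanosterol synthase, which closes the ring system. The shared Fdft1 peak (chr14:63177860-63178416) had folds of 13.3 (replicate 1) and 28.0 (replicate 2), the highest replicate 2 value of the 8. Its summits lay 3726 bp and 3747 bp inside the upper annotated end, so it misses windows of both 1 kb and 2.5 kb. Within 2.5 kb the count stayed at 7 of 8 genes, where 37.0% of all protein-coding genes had a shared peak. The annotation table gives no internal starts, so whether this peak sits at a start site was not tested. Counting shared peaks inside the gene or within 1 kb of it, a rule added after the Fdft1 peak was seen, gave 8 of 8 genes, where 42.8% of all protein-coding genes had one.

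The Sqle peak (chr15:59314633-59315378) had folds of 9.3 (replicate 1) and 25 (replicate 2), with summits 31 bp and 101 bp from the lower annotated end. The Lss peak (chr10:76531388-76531760) had folds of 9.29 (replicate 1) and 10.3 (replicate 2), with summits at −133 bp and −120 bp relative to the start site. Lss had the lowest fold of the 8 in both replicates, level with Sqle in replicate 1, at percentiles 52.7 and 46.1 of the lists. Its −log10 q of 17.7 and 14.9 fell short of 20, and it was the 1 gene lost with that threshold.

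**Figure D2:**
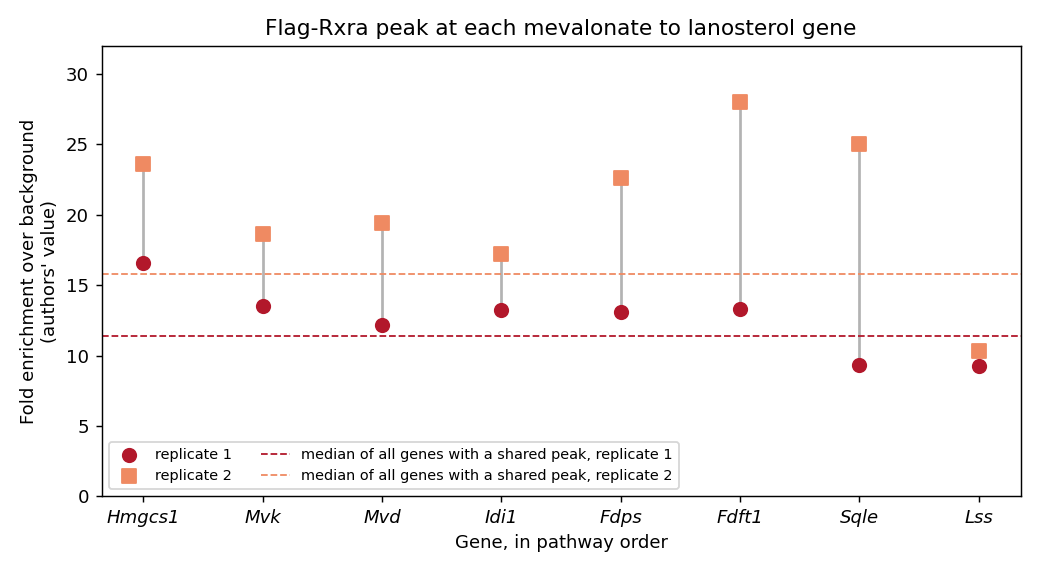
Fold enrichment of the shared Flag-Rxra peak (y axis, the authors' value) at each gene in pathway order, in replicate 1 (circles) and replicate 2 (squares); dashed lines are the medians, 11.4 and 15.8, of the best peak within 1 kb over all protein-coding genes with a shared peak there. Replicate 2 was higher at all 8 genes, by the least at Lss (9.29 and 10.3) and by the most at Sqle (9.3 and 25).

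Across the 8 peaks the median fold was 13.1 in replicate 1 and 21.0 in replicate 2. Over the 7 genes with a shared peak within 1 kb, the best peak there had medians of 13.1 and 19.4, and over all protein-coding genes with one 11.4 and 15.8. Replicate 2 had the higher fold at all 8 genes, as it did at most shared peaks, for which the median ratio of replicate 2 to replicate 1 was 1.39, and the 10th to 90th percentile 0.886 to 2.16. The ratio was 2.69 at Sqle, percentile 96.9 of all shared peaks, 2.11 at Fdft1, percentile 88.7, and 1.73 at Fdps, percentile 73.9. At the other 5 genes it lay between 1.11 and 1.59. The order of the genes by fold therefore differs between the replicates: Hmgcs1 led in replicate 1, and Fdft1, Sqle and Hmgcs1 led in replicate 2. Mvk, Mvd, Idi1, Fdps and Fdft1 lay close together in replicate 1, between 12.2 and 13.5, less than the gap between the replicates at any of them.

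H3K27ac regions overlapped some of these Flag-Rxra peaks and not others. Only at Hmgcs1 was the peak overlapped by a region of both lists, with a fold of 3.07 and −log10 q of 1.49 in CD and a fold of 3.25 and −log10 q of 2.25 in DMSO. The Lss peak was overlapped by a CD region with a −log10 q of 1.08, and by no DMSO region. That CD region drops out once the CD list is shortened from its weakest regions to the covered length of the DMSO list, so the overlap at Lss ends. At Sqle it was overlapped by a DMSO region with a −log10 q of 1.78, and by no CD region. The peaks of Mvk, Mvd, Idi1, Fdps and Fdft1 overlapped neither list. In each list 2 of the 8 peaks were overlapped, all of them among the 7 near a gene end. Of the 6406 shared Flag-Rxra peaks near gene ends 35.8% overlapped a CD region and 43.9% a DMSO region. With so few peaks no difference from these shares was tested. None of the 8 peaks lay where both lists had an H3K27ac region of −log10 q of 50 or more, but such places are rare. Leaving them out changed the number of protein-coding genes with a shared peak within 1 kb only from 7128 to 7126.

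At some of the uncovered peaks a region was called nearby. At Mvk the nearest CD region was 4178 bp away, while a DMSO region ended 76 bp short of the Flag-Rxra peak. At Mvd the nearest CD region was 15440 bp away and the nearest DMSO region 504 bp. The DMSO regions were thus the nearer ones at these early enzymes. At Idi1 the nearest regions stood 6792 bp away in CD and 13809 bp in DMSO, and at Fdps 3161 bp in CD and 17211 bp in DMSO, so here CD was nearer. At Fdft1 the nearest regions were 5160 bp away in CD and 5119 bp in DMSO.

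**Figure D3:**
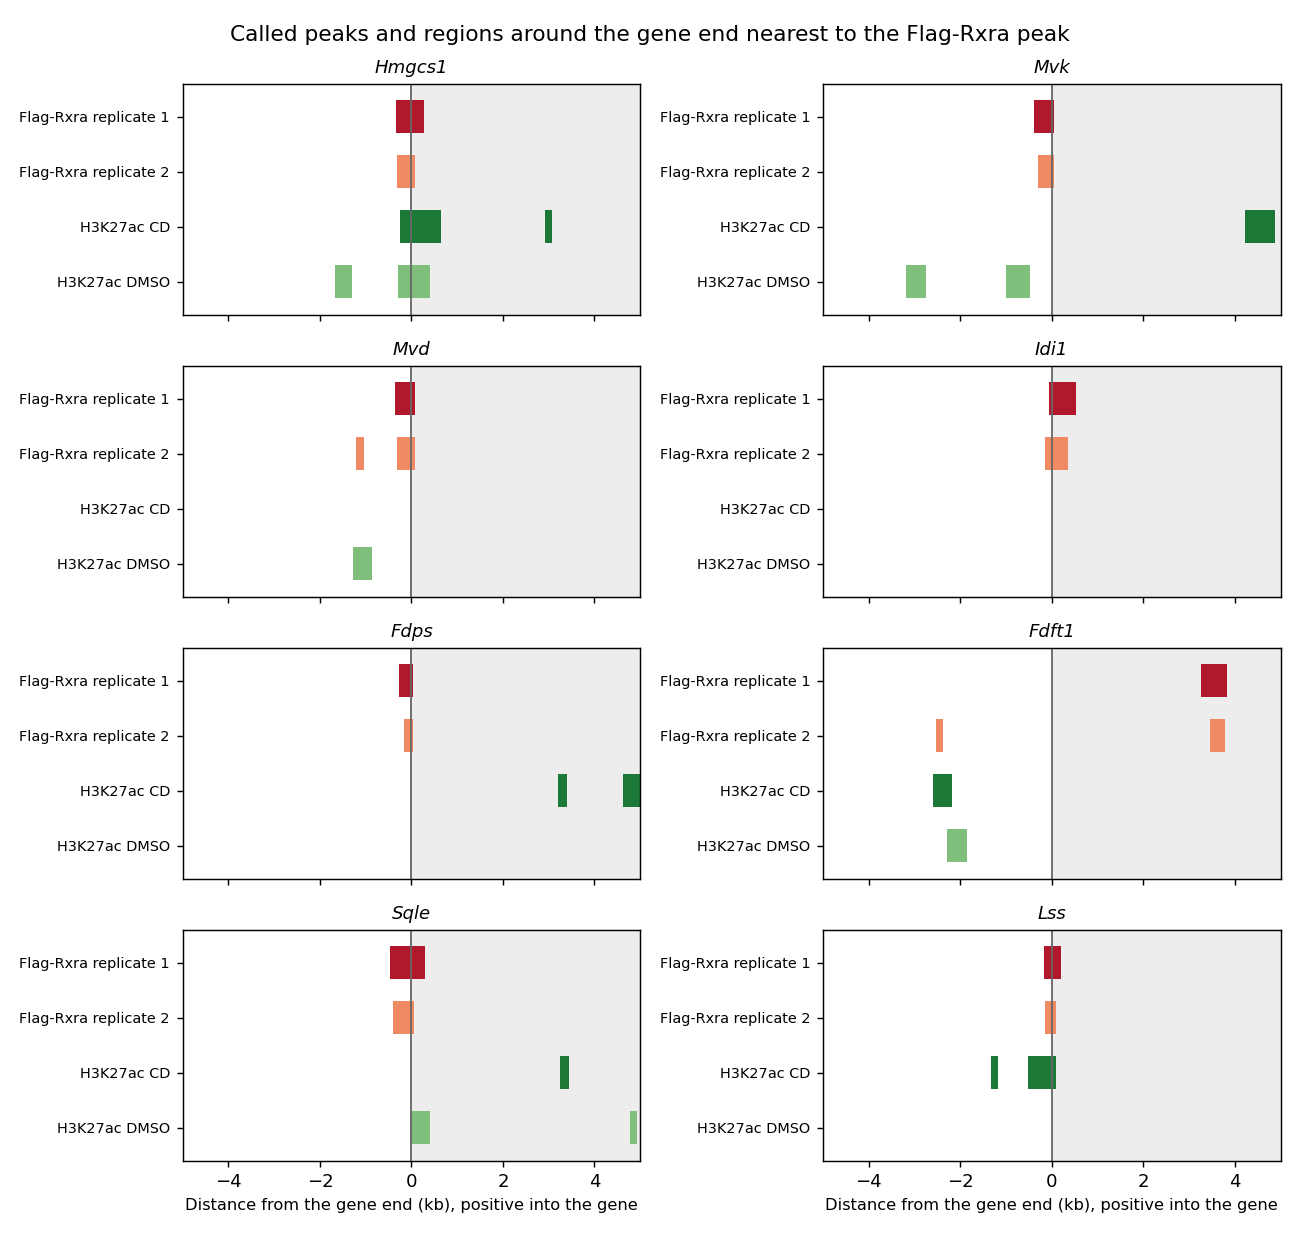
Called Flag-Rxra peaks (red, replicate 1 above replicate 2) and H3K27ac regions (green, CD above DMSO) within 5 kb of the annotated end nearest to the Flag-Rxra peak; the x axis is the distance from that end in kb, positive into the gene, and grey marks the gene body. The peaks of 7 genes straddle the end itself, the Fdft1 peak lies 3.7 kb inside the gene, and only at Hmgcs1 do all 4 lists overlap.

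Around the gene ends, an H3K27ac region within 1 kb was called at 3 genes in CD (Hmgcs1, Idi1 and Lss) and at 4 in DMSO (Hmgcs1, Mvk, Mvd and Sqle), where 38.3% and 35.8% of all protein-coding genes had one. The Idi1 region lies at the end away from its Flag-Rxra peak. Fdps and Fdft1 had none in either list. Within 2.5 kb of the ends, 908 bases were covered at Hmgcs1 in CD, against 1243 in DMSO, and 756 at Lss in CD, against 0 in DMSO. With covered lengths matched between the lists, the Lss difference was 156 bases and Lss had no CD region within 1 kb, a count added after the data were seen that left 2 genes in CD, where 34.2% of all genes had one. Mvk had 0 in CD and 535 in DMSO, Mvd had 0 in CD and 404 in DMSO, and Sqle had 0 in CD and 439 in DMSO. The middle of the DMSO region at Mvk lay 542 bp from an end of Mmab and 733 bp from one of Mvk. Its assignment to either gene was not tested. Fdft1 had 474 in CD and 721 in DMSO, Idi1 had 237 in CD and 0 in DMSO, and Fdps had 0 in both. Thus 2 genes had more covered bases in CD, 5 had more in DMSO and 1 was equal, where 35.8%, 32.1% and 32.1% of all protein-coding genes fell into these classes. The median difference, CD minus DMSO, was −291 bases over the 8 genes and 0 over all genes. With 1 list a condition there is no test of it, and at a −log10 q of 2 or more only the Hmgcs1 region of DMSO was left within 1 kb and the median was 0.

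In the wider window of 50 kb the split went the other way. At Fdps 5015 bases were covered in CD, against 1863 in DMSO, and at Mvd 4785 in CD, against 2987 in DMSO. Lss had 3566 in CD, against 2468 in DMSO. The opposite was seen at Hmgcs1, with 3045 in CD and 6083 in DMSO, and at Mvk, with 2165 in CD and 4538 in DMSO. Idi1 (2221 in CD and 2175 in DMSO), Fdft1 (7301 in CD and 6881 in DMSO) and Sqle (3976 in CD and 3822 in DMSO) were nearly level. In all, 6 of 8 genes had more covered bases in CD, where 59.0% of all protein-coding genes did, and 2 had more in DMSO, where 31.5% did. The median difference of 287 bases stood beside 262 over all genes. The CD list covers 37.3 Mb and the DMSO list 31.1 Mb. With covered lengths matched between the lists, 2 genes had more in CD, Mvd and Fdps, and 6 had more in DMSO, where 46.0% and 42.7% of all protein-coding genes did, and the median was −187 bases, against 0 over all genes.

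**Figure D4:**
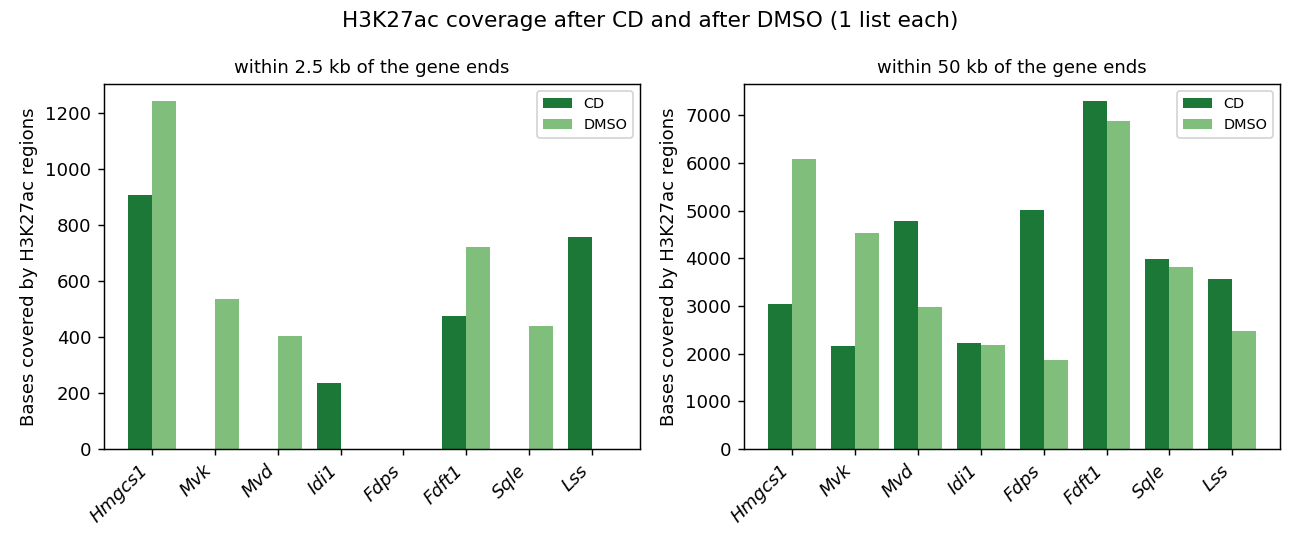
Bases covered by H3K27ac regions (y axis) within 2.5 kb (left) and 50 kb (right) of the ends of each gene, after CD (dark green) and after DMSO (light green); each bar is 1 list, with no replicate error. Mvk, Mvd and Sqle have bars only in DMSO within 2.5 kb. Within 50 kb 6 genes have the taller CD bar, by the most at Fdps and Mvd, and Hmgcs1 and Mvk have the taller DMSO bar.

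None of the 86 CD and 72 DMSO regions counted within 50 kb of the 8 genes reached a −log10 q of 5. The highest values were 4.33 in CD, at a region 12.6 kb beyond the upper end of Sqle that a DMSO region overlapped, and 3.95 in DMSO, at a region 48.9 kb from Sqle. In the whole lists 681 CD and 721 DMSO regions reached that value.

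Including those described above, 18 shared Flag-Rxra peaks lay inside the 8 genes or within 50 kb of them, between 1 and 5 a gene. All 8 genes had at least 1, as did 68.9% of all protein-coding genes, and the median was 2, against 1 over all. Idi1, Sqle and Lss had only the peak at their own end. Fdft1 had 5, among them a peak (chr14:63131897-63132714) with folds of 16.4 (replicate 1) and 28.8 (replicate 2) and the highest −log10 q of the 18, at 271 and 424. It lies 12.8 kb from Fdft1 and inside Ctsb, a neighbouring cathepsin gene. A further Fdft1 neighbour peak stood at the far end of Ctsb (chr14:63122456-63122935), with folds of 12.3 and 14.2. A DMSO region overlapped it, and no CD region did.

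Mvk had a pair of shared peaks 30.6 kb and 31.8 kb away, the stronger of them at chr5:114412773-114413840 with folds of 12.3 (replicate 1) and 14.6 (replicate 2). A DMSO region overlapped both of them in the replicate 1 list, and no CD region did. Fdps had 2 shared peaks at 3.5 kb and 5.9 kb, both inside Rusc1, with folds of 5.97 and 7.38 in replicate 1 and 5.40 and 8.67 in replicate 2. A CD region with a −log10 q of 1.81 overlapped the one at 3.5 kb, and no DMSO region did. Mvd had 1 shared peak 9.8 kb away near Il17c, with folds of 4.68 (replicate 1) and 18.5 (replicate 2). Hmgcs1 had 1 at 47.7 kb, at the far end of Nim1k, with folds of 9.08 (replicate 1) and 9.22 (replicate 2). A DMSO region overlapped that peak, and no CD region did. All of these shared peaks have a nearer gene end than that of the pathway gene, and their assignment to it was not tested. Replicate 1 alone gave 30 peaks and replicate 2 alone 44 in the same windows.

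**Figure D5:**
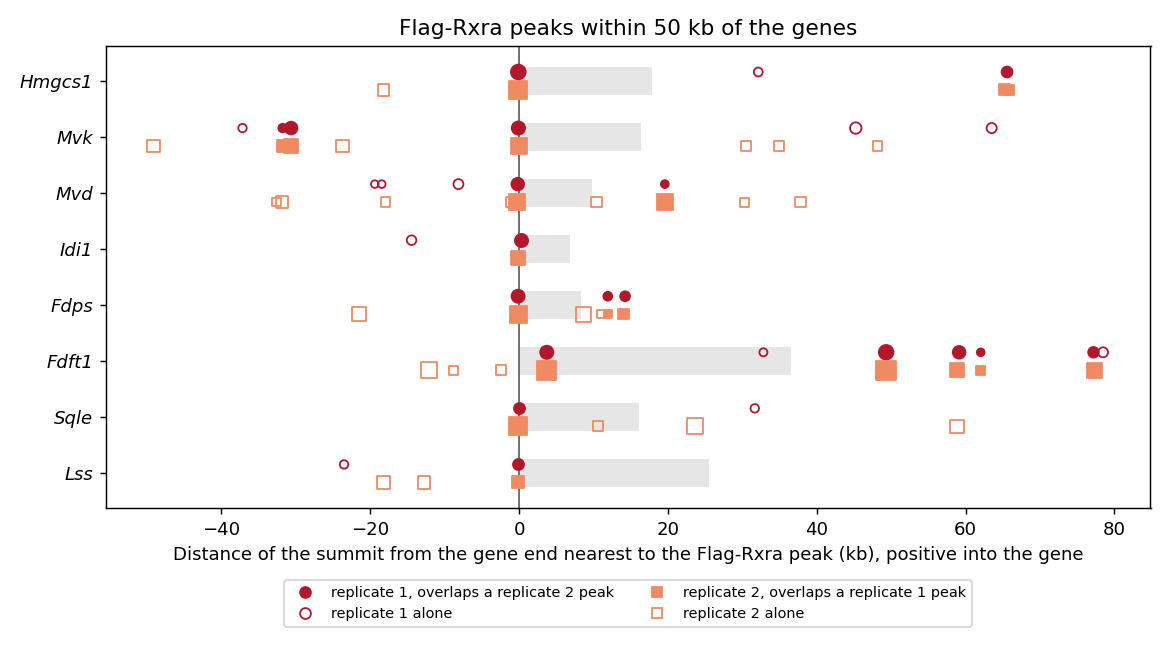
Flag-Rxra peaks within 50 kb of each gene; the x axis is the distance of the summit from the end nearest to the main peak in kb, positive into the gene, grey bars are gene bodies and symbol area grows with fold. Filled symbols overlap a peak of the other replicate, and at Idi1, Sqle and Lss the only filled pair is the one at the gene end.

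Peaks were also called at other genes around the pathway. Of 22 further genes of early and late sterol synthesis, isoprenoid branches and their control, 15 (68.2%) had a shared Flag-Rxra peak within 1 kb of an end, where 32.6% of all protein-coding genes had one. Both further early enzymes did, Acat2, the cytosolic acetoacetyl-CoA thiolase (17.3 in replicate 1 and 16.2 in replicate 2), and Pmvk, phosphomevalonate kinase (15.2 and 16). Among later sterol enzymes 6 of 9 did, from Cyp51, which demethylates lanosterol (14.4 and 10.8), to Dhcr7, the last enzyme of one route to cholesterol (17.2 and 23.7). Nsdhl, Ebp and Sc5d had a peak in replicate 2 only, with folds of 15.4, 11.0 and 14.4.

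Of 6 control genes 4 had such a peak: Srebf2, which encodes SREBP2 (12.2 in replicate 1 and 23.5 in replicate 2), Scap, its escort (9.44 and 25.6), Insig1, which retains that escort in the endoplasmic reticulum (11.9 and 18.4), and Mbtps1, the site-1 protease (10.9 and 11.5). Insig2 and Mbtps2, the site-2 protease, had none within 1 kb of an end, but Insig2, like Fdft1, had a shared peak inside the gene. Of 5 isoprenoid branch genes 3 had one, Ggps1, Pdss1 and Dhdds, and Pdss2 and Nus1 did not. Nus1 had a peak in replicate 2 only, with a fold of 19.1, and Pdss2 had none in either replicate. Within 50 kb, 11 of the 22 had the larger H3K27ac coverage in CD, 10 in DMSO and Mbtps2 had 0 in both, with a median difference of 63.5 bases. Over all protein-coding genes 59.0% had more in CD and 31.5% more in DMSO, with a median of 262 bases. At Insig1 3321 bases were covered in CD, against 5103 in DMSO, at Srebf2 5810 in CD, against 4521 in DMSO, and at Scap 2391 in CD, against 6447 in DMSO.

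Likeness to the 8 genes was measured over 4 values: the best Flag-Rxra fold within 1 kb in each replicate and the CD and the DMSO coverage within 2.5 kb, each as a percentile over all protein-coding genes. The other genes nearest to the medians of the 8 were Tmem43, Hps1 and Zfp386, at Euclidean distances of 7.36, 8.14 and 8.48 percentile points. The 8 genes themselves lay farther from their own medians, from 17.5 points at Mvd to 90.5 at Fdft1.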

How the data were processed

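CUT&Tag for H3K27ac (after CD and after DMSO) and for Flag-Rxra gave 4 deposited peak lists. Per the submitters' processing notes, MACS2 2.1.2 and Bowtie2 2.2.5 were used on build mm10, along with deepTools 3.4.3 and fastp 0.20.1, with no parameters or order given. The fold enrichment of a peak is a ratio over the background of the peak caller, as deposited by the authors. The −log10 q of a peak is likewise the authors' deposited value. Per the labels, both H3K27ac replicates of a condition name 1 list and each Flag-Rxra replicate its own. How replicates were combined and whether a control entered are not given in the sources used here.

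Only peaks on the autosomes, X and Y entered. Gene ends came from RefSeq (GRCm38.p6, the assembly of mm10), and start sites and strands from RefSeq promoter windows, found for 5 of the 8 genes. Overlap meant 1 bp or more. Covered bases are those inside called regions within the given distance of either gene end. Overlap and coverage functions were tested on simulated data. Genes named were all 8, the other pathway genes of 4 lists, neighbours under the same peak and the 3 genes nearest in pattern. The 8 genes and the lists were chosen with earlier results of these data known, so no set test was made. Stricter −log10 q limits, an overlap of 50%, other windows, single Flag-Rxra replicates, matched covered lengths and bases weighted by fold were tried as alternatives. Python 3.11.15, numpy 2.4.6, pandas 2.3.3 and matplotlib 3.10.9 were used.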

Additional observations from a re-analysis of the deposited data

How the results depend on the processing

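The count of genes with a shared Flag-Rxra peak within 1 kb was 7 under 7 of 9 other settings, where the share of all genes lay between 20.2% and 42.1%. With a minimum −log10 q of 20 it was 6, without Lss, where 24.2% of all genes had one, and it was 8 with peaks inside genes counted too (42.8%), a setting added after the data were seen. Single replicates and the window of 2.5 kb loosen the rule, so they could hardly lower the count. Leaving out places of strong H3K27ac took almost no genes away (7128 became 7126). Stricter settings that kept the count at 7 were a minimum −log10 q of 10 (31.4% of all genes), an overlap of 50% (20.2%) and a summit inside the window (31.6%). The shared peaks within 50 kb numbered 18, with 30 to 44 when 1 replicate was left out, since peaks then need no partner. No paired analysis was possible because each H3K27ac condition has 1 list for both replicates and the Flag-Rxra replicates are compared with no other group.

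H3K27ac results depended on the threshold. At a −log10 q of 2 or more, 0 genes in CD and 1 in DMSO had a region within 1 kb, where 6.65% and 8.84% of all genes did. At 5 or more the count was 0 in both, where 0.155% and 0.151% did. The median CD minus DMSO difference within 2.5 kb, −291 bases, was 0 at a −log10 q of 2 or 5, −370 with covered lengths matched and −864 with bases weighted by fold. Within 50 kb, 287 bases became 172 at 2, 0 at 5 and 2220 weighted by fold, and the sign turned with lengths matched, at −187. Single genes also turned there: Idi1 to −1098, Fdft1 to −9, Sqle to −238 and Lss to −136 with lengths matched, and Fdft1 to −160 at a −log10 q of 2. With lengths matched the weakest CD regions are left out by construction. The lists hold no read counts, so a difference in depth between CD and DMSO cannot be told apart from a difference in the mark.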

Other observations

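The 3 pathway genes on the X chromosome, Nsdhl and Ebp, enzymes of late sterol synthesis, and Mbtps2, the site-2 protease that frees SREBP2, had no shared Flag-Rxra peak within 1 kb of an end. Of 966 protein-coding genes on the X chromosome 13.4% had one, against 33.9% of autosomal genes. Nsdhl and Ebp had a replicate 2 peak, with folds of 15.4 and 11.0. Mbtps2 had no peak in either replicate and 0 H3K27ac covered bases within 50 kb in both CD and DMSO. The chromosome was singled out after these values were seen, and its part in them was not tested.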
